A study of Mus musculus with 9 samples.

Results

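The SPARC family is a small group of secreted, calcium-binding proteins of the extracellular matrix. It was followed here through 7 genes in urogenital sinus mesenchymal cells, the connective tissue precursors of the fetal prostate. They were the testican genes Spock1, Spock2 and Spock3, Sparc itself, its close relative Sparcl1, and the modular calcium-binding proteins Smoc1 and Smoc2. All 7 were measured, each by 1 probeset, among 19938 genes in all. The set was assembled because Spock3 was known to be higher at both estradiol (E2) doses, so the values of Spock3 are given as a description, with no test. The other 6 genes belong to the set by family and not by their values, and the tests reported are theirs.

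The cells came from male CD-1 mouse fetuses on gestation day 17 and were used as first passage primary cultures, after epithelial cells had been removed by settling. Every culture was first kept for 3 days without estrogen in medium with charcoal-stripped serum and 690 pM dihydrotestosterone (DHT). A treatment of 4 days followed, with 0.05% ethanol as vehicle or with E2 at 10 pM or 100 pM. This ethanol concentration is that of the vehicle label and the methods, while the treatment protocol in the labels gives a higher one. DHT was present in all 3 groups, so that no group lacked androgen. Each group had 3 Affymetrix Mouse Gene 1.0 ST arrays, 9 in all. Neither labels nor methods state that the 3 replicates of a group came from separate litters or cell preparations. The spread behind each p-value is that of these 9 samples alone and may be technical.

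The members share a domain with calcium-binding EF hands and a follistatin-like domain. SPARC binds collagen and changes how cells attach to matrix without being a structural fiber itself, and is therefore called matricellular. Testicans carry heparan and chondroitin sulfate chains and a thyroglobulin type 1 domain, and are best known from the brain. Human testicans have been linked to the control of membrane-type matrix metalloproteases and of cathepsin L. SMOC proteins also hold thyroglobulin domains, and Smoc1 acts against bone morphogenetic protein (BMP) signaling in Xenopus.

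The testicans are the branch in which only one member carried the E2 pattern, so the sequences around their start sites are shown for comparison. RefSeq (GRCm38.p6) gave start-site sequences for 4 of the 7 members, among them all 3 testicans, from 250 bases before to 50 after the start. Capitals mark the letters GGTCA on either strand (TGACC when read in reverse), one arm of the estrogen response element. Spock3 has 2 annotated starts, of which the upstream one is printed.
Spock3 (chr8:62950982-62951281, + strand): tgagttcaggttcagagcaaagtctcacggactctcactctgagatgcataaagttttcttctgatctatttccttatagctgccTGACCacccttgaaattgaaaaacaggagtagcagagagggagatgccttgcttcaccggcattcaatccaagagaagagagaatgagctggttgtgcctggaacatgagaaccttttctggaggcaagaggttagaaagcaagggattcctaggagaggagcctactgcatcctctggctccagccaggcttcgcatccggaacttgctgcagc
Spock1 (chr13:57908283-57908582, - strand): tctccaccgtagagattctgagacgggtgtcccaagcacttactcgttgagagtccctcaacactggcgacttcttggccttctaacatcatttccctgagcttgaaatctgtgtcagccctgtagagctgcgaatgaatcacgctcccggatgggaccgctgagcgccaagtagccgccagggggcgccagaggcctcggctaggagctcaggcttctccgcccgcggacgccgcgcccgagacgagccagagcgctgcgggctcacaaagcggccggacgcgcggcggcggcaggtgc
Spock2 (chr10:60106007-60106306, + strand): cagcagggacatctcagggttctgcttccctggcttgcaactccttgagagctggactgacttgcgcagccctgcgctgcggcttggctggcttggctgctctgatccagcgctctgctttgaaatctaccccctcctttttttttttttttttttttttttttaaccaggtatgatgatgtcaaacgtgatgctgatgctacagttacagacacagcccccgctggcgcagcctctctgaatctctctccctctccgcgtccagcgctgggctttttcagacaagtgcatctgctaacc
The upstream Spock3 start had 1 such match, beginning at position -165, and the Sparc start also had 1, at -45. Neither the downstream Spock3 start nor the Spock1 or Spock2 start had any. Of 32851 promoters of the same length 40.5% held GGTCA on either strand, so a match is common. The full element, in which GGTCA is followed after any 3 bases by its reverse complement, was in none of the 5 start-site sequences of these genes and in 0.07% of all promoters. The AP-1 motif TGANTCA was found once, at Spock1 (7.81% of all promoters), and the GC box GGGCGG once, also at Spock1 (35.7%). The TATA motif TATAAA was in none of the 5 (13.6% of all promoters). Both strands were searched for each motif. A match describes the letters of these windows and does not show a binding site.

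On the arrays, values were log2 expression, so that a difference of 1 is a doubling. Probeset signal does not give transcript number across genes, so changes were read only within a gene. Where a probeset is ranked among all genes, this describes its brightness on the array. Array medians lay between 6.17 and 6.20, and arrays correlated across genes with r between 0.997 and 0.998 within a group and between 0.996 and 0.998 between groups. All 10 mesenchymal markers, which included vimentin and collagen genes, were brighter than the median gene. So were all 8 smooth muscle markers. Of the markers for other cells, 3 of 10 epithelial, 2 of 10 endothelial, 1 of 10 macrophage and 1 of 9 measured neuron and glia genes were. As a check on the treatment, the estrogen target Pgr rose by 1.04 ± 0.11 at 100 pM against vehicle (SE, limma adjusted p = 0.00359). At 10 pM Pgr differed from vehicle by 0.46 ± 0.11, and its adjusted p was not below 0.05. Greb1 differed by 0.61 (adjusted p = 0.0523), the receptor gene Esr1 by 0.21 (adjusted p = 0.0997) and Esr2 by 0.10 (adjusted p = 0.739) at 100 pM.

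Spock3, which encodes testican 3, had log2 values of 7.23, 7.18 and 7.35 on the vehicle arrays. At 10 pM E2 the values were 7.62, 7.84 and 7.83, and at 100 pM they were 8.04, 8.11 and 8.12. No array of one group reached the range of another, and the groups lay in the order of dose. The lowest 10 pM array was 0.27 above the highest vehicle array, and the lowest 100 pM array was 0.20 above the highest 10 pM array.

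Group means of Spock3 were 7.25 ± 0.09 for vehicle, 7.76 ± 0.13 for 10 pM and 8.09 ± 0.04 for 100 pM (SD, n = 3 each). Against vehicle, the 10 pM mean was 0.51 higher on the log2 scale, or 1.43-fold, and the 100 pM mean 0.84 higher, or 1.79-fold. The 100 pM mean was 0.33 above the 10 pM mean, which is 1.25-fold. On the log2 scale, 61.0% of the difference at 100 pM was therefore already present at 10 pM. The differences from vehicle share the vehicle arrays. By size of increase over vehicle Spock3 ranked 3 of 19938 genes at 10 pM and 8 of 19938 at 100 pM. Its SD over the 9 arrays, 0.37, exceeded that of 99.8% of genes. Among all genes, 3.74% had every 10 pM array above every vehicle array, as Spock3 did, and 2.19% had every one below. For 100 pM these shares were 6.61% and 5.89% against vehicle, and 5.89% and 6.42% against 10 pM. All 3 groups lay apart in rising order for 58 genes (0.291%), Spock3 among them. The choice of Spock3 used these contrasts, so these ranks and shares are a description.

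**Figure D1:**
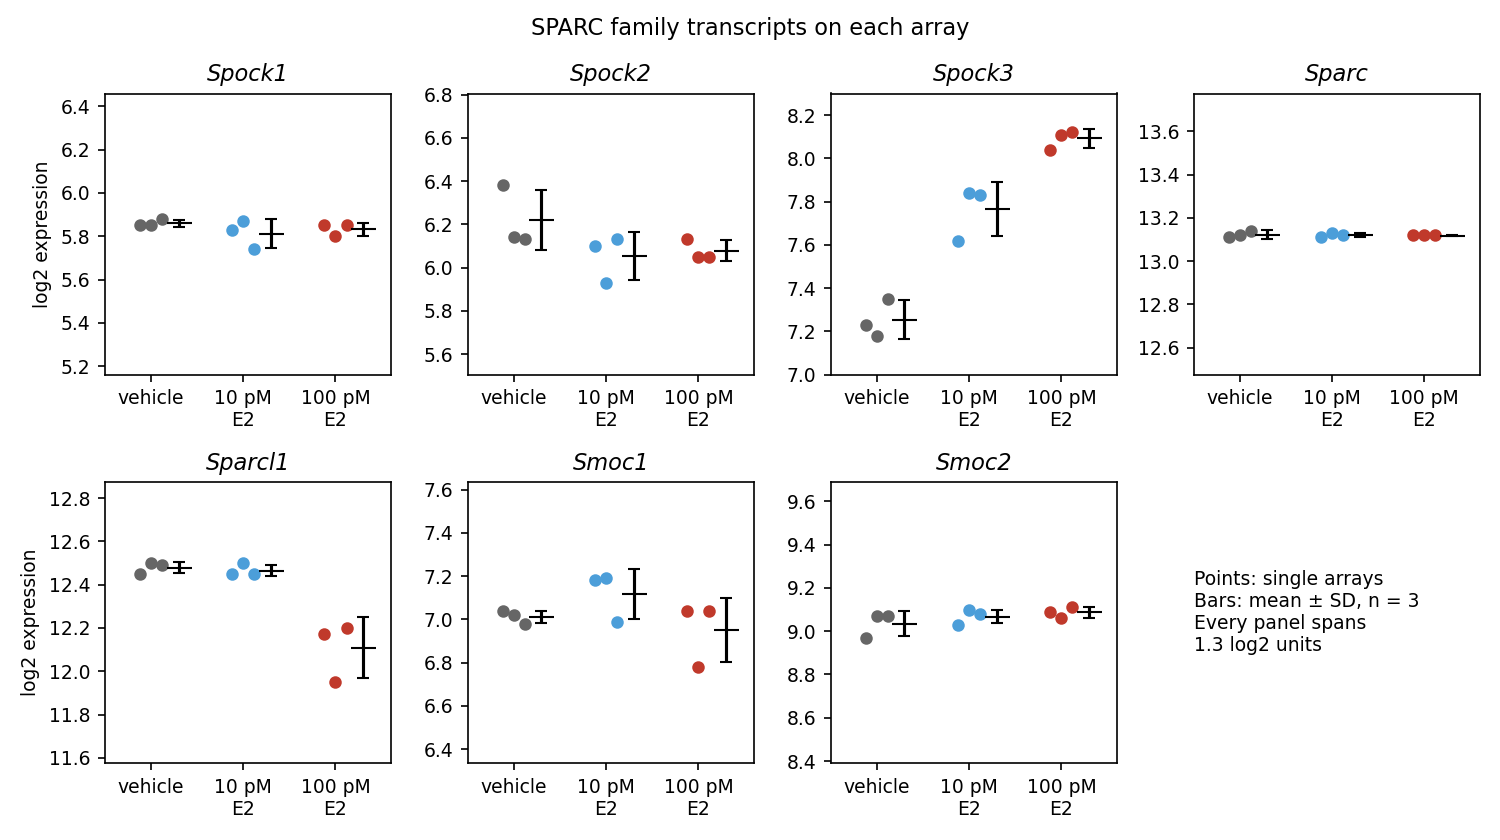
Log2 expression of the 7 members by treatment (vehicle, 10 pM E2, 100 pM E2), 1 panel per gene. Each point is 1 array, the bars give group mean and SD (n = 3), and every panel spans 1.3 log2 units. Spock3 is higher at each dose (means 7.25, 7.76 and 8.09), Sparcl1 is lower at 100 pM alone, and the groups of the other 5 genes overlap.

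The other testicans did not share this pattern. Spock1, which encodes testican 1, had values of 5.85, 5.85 and 5.88 with vehicle, 5.83, 5.87 and 5.74 at 10 pM and 5.85, 5.80 and 5.85 at 100 pM. All groups overlapped. The 100 pM difference from vehicle was -0.03 ± 0.04 (SE, adjusted p = 0.859), with a 95% interval from -0.12 to 0.07. A signal change as large as that of the Spock3 probeset lies outside this interval, though sizes of change may not compare between probesets.

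Spock2, which encodes testican 2, had values of 6.38, 6.14 and 6.13 with vehicle, 6.10, 5.93 and 6.13 at 10 pM and 6.13, 6.05 and 6.05 at 100 pM. The first vehicle array stood above the other 8, and both E2 groups overlapped with vehicle. The difference from vehicle was -0.16 ± 0.08 at 10 pM (limma adjusted p = 1) and -0.14 ± 0.08 at 100 pM (adjusted p = 0.564). Without the first vehicle array these differences were -0.08 and -0.06, and without the second 10 pM array the 10 pM difference was -0.10. The 95% intervals on all arrays ran from -0.34 to 0.01 at 10 pM and from -0.31 to 0.03 at 100 pM. In probeset signal, which is no measure of transcript number, 37.7% of genes were dimmer than Spock1 and 43.1% dimmer than Spock2. Whether signals this dim limit the changes that these 2 probesets can show was not tested.

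Sparc, the founding member and a collagen-binding glycoprotein, differed little between arrays. Its values lay between 13.11 and 13.14 on all 9 arrays, and its SD over the arrays, 0.011, was higher than that of only 0.3% of genes. The difference from vehicle was -0.004 at 10 pM and -0.006 at 100 pM (SE 0.031 each, limma adjusted p = 1 and 0.968), with a 95% interval at 100 pM from -0.08 to 0.06. In probeset signal 99.9% of genes were dimmer, and whether a signal this high limits the changes that the probeset can show was not tested.

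Sparcl1, also called hevin, is a matricellular protein known for roles in synapse formation and in collagen assembly. Its values were 12.45, 12.50 and 12.49 with vehicle, 12.45, 12.50 and 12.45 at 10 pM and 12.17, 11.95 and 12.20 at 100 pM. The vehicle and 10 pM arrays covered the same range, and all 3 arrays at 100 pM lay below it by at least 0.24. Group means were 12.48 ± 0.03 for vehicle, 12.47 ± 0.03 for 10 pM and 12.11 ± 0.14 for 100 pM (SD, n = 3 each).

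Expression of Sparcl1 fell by 0.37 ± 0.06 at 100 pM against vehicle (SE, limma adjusted p = 0.0306), to 77.4% of the vehicle level. The 95% interval was -0.51 to -0.23. Against 10 pM it fell by 0.36 ± 0.06 (adjusted p = 0.0424), to 78.1%, whereas 10 pM and vehicle differed by -0.01 ± 0.06 (adjusted p = 1, 95% interval -0.16 to 0.13). The F test over the 3 groups also called Sparcl1 (adjusted p = 0.0431). In these bulk cultures, fewer Sparcl1-expressing cells and less Sparcl1 RNA per cell cannot be told apart. In probeset signal 99.8% of genes were dimmer than Sparcl1. Whether a signal this high limits the changes that its probeset can show was not tested.

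Sparcl1 was the only one of the 6 tested members called, and in the comparison of 100 pM with vehicle 1.13% of all genes were called (0.687% as lower). In the comparison of 100 pM with 10 pM 0.833% were called (0.607% as lower), and at 10 pM against vehicle 0% were, with 3.54% at an unadjusted p below 0.05 and none of the 6 members among them. The 100 pM arrays of Sparcl1 did not overlap with vehicle, which held for 12.5% of all genes.

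The call of Sparcl1 was close to the threshold. For 100 pM against vehicle, leaving out vehicle array 1, 2 or 3 ended it (adjusted p = 0.107, 0.103 or 0.121), as did leaving out 10 pM array 1, 2 or 3 (0.0699, 0.0671 or 0.0674). It held without any one 100 pM array (0.0203 to 0.043). The adjusted p was 0.105 when all probesets were tested, 0.171 when only the compared groups were fitted, and 0.152 without moderation. The size of the fall lay between -0.42 and -0.29 in all 19 alternatives, and the smallest value came without the second 100 pM array, the one with the lowest signal. For 100 pM against 10 pM the adjusted p without single arrays ranged from 0.0305 to 0.18, and the call was lost without any one vehicle array (0.0812 to 0.0914), any one 10 pM array (0.141 to 0.18) or the first 100 pM array (0.0593).

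Markers of other cells were examined beside the fall of Sparcl1, a gene that endothelial and mural cells also express. Beside the counts below, 1.13% of all genes were called at 100 pM against vehicle (0.687% as lower). The mean of the 10 endothelial markers was 5.99 to 6.01 on the 100 pM arrays and 6.02 to 6.10 on the vehicle arrays, and 2 of the 10 were called, Kdr as lower (-0.98) and Emcn as higher (0.82). The other 8, Pecam1 and Cdh5 among them, differed by -0.15 to 0.04. The mean of the 10 macrophage markers was 5.64 to 5.70 at 100 pM and 5.87 to 6.03 with vehicle. At 10 pM it was 5.75 to 5.92, with 2 of the 10 higher than with vehicle and 0 called. All 10 were lower at 100 pM than with vehicle, with C1qb called (-0.51, adjusted p = 0.0433). The mean of the 10 epithelial markers was 5.87 to 6.00 at 100 pM, against 5.84 to 5.88 at 10 pM and 5.81 to 5.91 with vehicle. Of these, Krt18 had 7.57, 7.98 and 7.90 at 100 pM, against 7.15, 7.39 and 7.20 at 10 pM and 7.36, 7.37 and 7.43 with vehicle. It rose at 100 pM against 10 pM (0.57, adjusted p = 0.0428), and its difference from vehicle was 0.43 (adjusted p = 0.112) with no overlap of arrays. The 100 pM and vehicle arrays did not overlap for 12.5% of all genes. The mean of the 8 smooth muscle markers was 10.61 to 10.67 at 100 pM and 10.61 to 10.69 with vehicle. Of the 10 mesenchymal markers, 4 fell at 100 pM, Pdgfra by 0.45, Lum by 0.41, Dcn by 0.26 and Col3a1 by 0.18, and the list mean was 11.37 to 11.44, against 11.52 to 11.53 with vehicle. The part of any of these in the fall of Sparcl1 was not tested. For Spock3, a gene best known from brain, the 9 neuron and glia markers had means of 5.57 to 5.59 at 10 pM, 5.56 to 5.63 at 100 pM and 5.54 to 5.61 with vehicle, with 0 called.

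**Figure D2:**
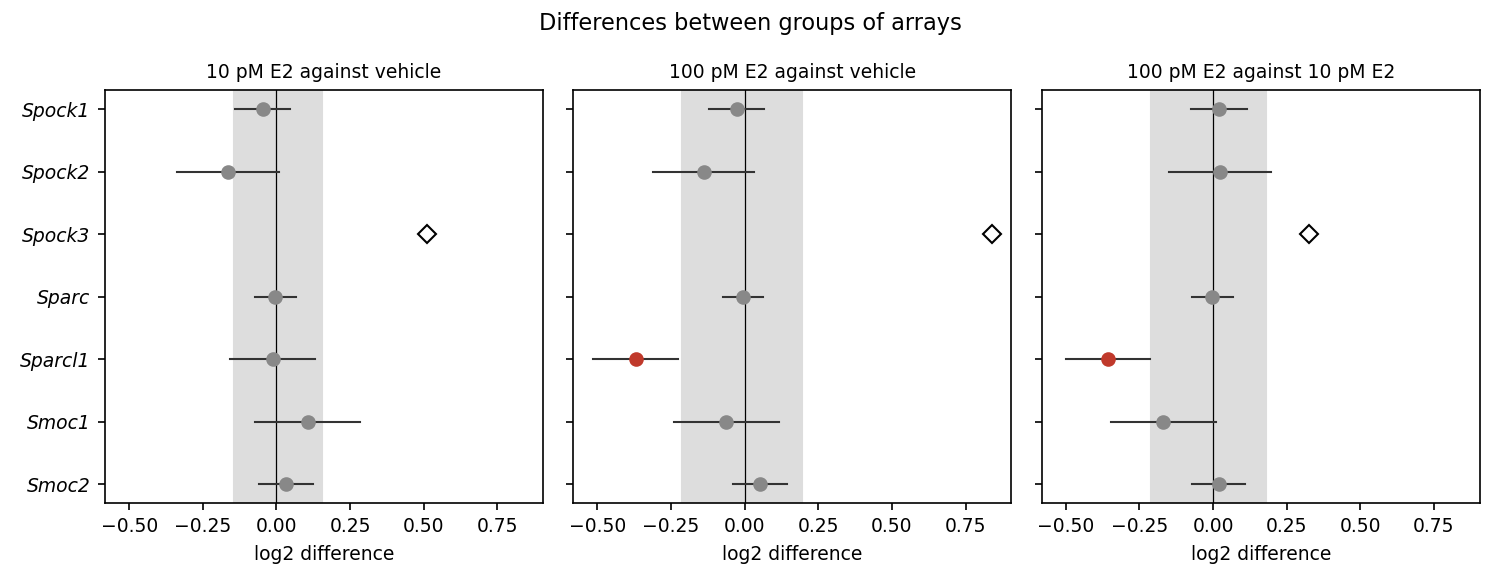
Log2 differences of the 7 members between groups, with 10 pM against vehicle on the left, 100 pM against vehicle in the middle and 100 pM against 10 pM on the right. Circles are tested genes with 95% intervals, red where called at an adjusted p below 0.05, and open diamonds are Spock3, which was not tested. The grey band holds the middle 95% of all genes (-0.21 to 0.19 in the middle panel), and Spock3 and Sparcl1 lie outside it at 100 pM, on opposite sides.

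The SMOC genes were not called in any contrast. Smoc1, a secreted modulator of BMP signaling, had values of 7.04, 7.02 and 6.98 with vehicle, 7.18, 7.19 and 6.99 at 10 pM and 7.04, 6.78 and 7.04 at 100 pM. Its group mean was highest at 10 pM, but the third 10 pM array lay among the vehicle arrays. The difference was 0.11 ± 0.08 for 10 pM against vehicle (SE, adjusted p = 1, 95% interval -0.07 to 0.29) and -0.17 ± 0.08 for 100 pM against 10 pM (adjusted p = 0.521, 95% interval -0.35 to 0.01). At 100 pM against vehicle it was -0.06. Without the second 100 pM array it was -0.08 against 10 pM and 0.02 against vehicle, and without the third 10 pM array the 10 pM difference from vehicle was 0.17.

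Smoc2, its paralog, lay between 8.97 and 9.11 on all arrays. Its group means were 9.04 ± 0.06 for vehicle, 9.07 ± 0.03 for 10 pM and 9.09 ± 0.03 for 100 pM (SD, n = 3 each), and 21.1% of all genes had means that increased in that order. The difference at 100 pM against vehicle was 0.05 ± 0.04 (SE, adjusted p = 0.703), with a 95% interval from -0.04 to 0.14, and 0.02 without the first vehicle array.

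Over the 9 arrays, Spock3 and Sparcl1 correlated with r = -0.74, Spock3 and Spock2 with r = -0.60, and Spock3 and Spock1 with r = -0.33. Sparcl1 and Smoc1 had r = 0.67, and the second 100 pM array was the lowest of all 9 for both. These values describe 9 arrays in 3 groups, so they hold differences between groups along with those between arrays.

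Genes whose values most resembled those of Spock3 were sought among the 237 genes with an SD over the arrays of at least 0.25. The highest r over the 9 arrays were those of Car12, a carbonic anhydrase (0.967), Fgf7, a mesenchymal growth factor for epithelium (0.958), Pi15, a peptidase inhibitor (0.956), and Pgr, the progesterone receptor (0.954). Angpt2, a ligand of the Tie2 receptor, followed with 0.953, Clca3a1 with 0.949, Lrrc55, an accessory protein of potassium channels, with 0.946, and Prxl2a with 0.931. Pgr had values of 6.57, 6.84 and 6.77 with vehicle, 7.04, 7.27 and 7.26 at 10 pM and 7.55, 7.84 and 7.90 at 100 pM. Like Spock3, it showed no overlap between groups and took its steps in the order of dose.

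These genes were chosen by r over the arrays of all groups, the middle dose included. Likeness to Spock3 at that dose is therefore part of the choice and not a separate result. The SD filter also spans the 3 groups and so favors genes that differ between them. The differences at 100 pM are thus not a separate result either. Differences of the 8 genes from vehicle ranged from 0.29 (Pi15) to 0.53 (Car12) at 10 pM and from 0.62 (Fgf7) to 1.04 (Pgr) at 100 pM. At the other end were Eln, which encodes elastin (r = -0.866), the growth factor gene Fgf18 (-0.862), Pamr1 (-0.851) and the complement gene C1qb (-0.847). Their differences from vehicle were between -0.27 and -0.18 at 10 pM and between -1.34 and -0.51 at 100 pM. The r values describe arrays that share their groups and carry no p.

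**Figure D3:**
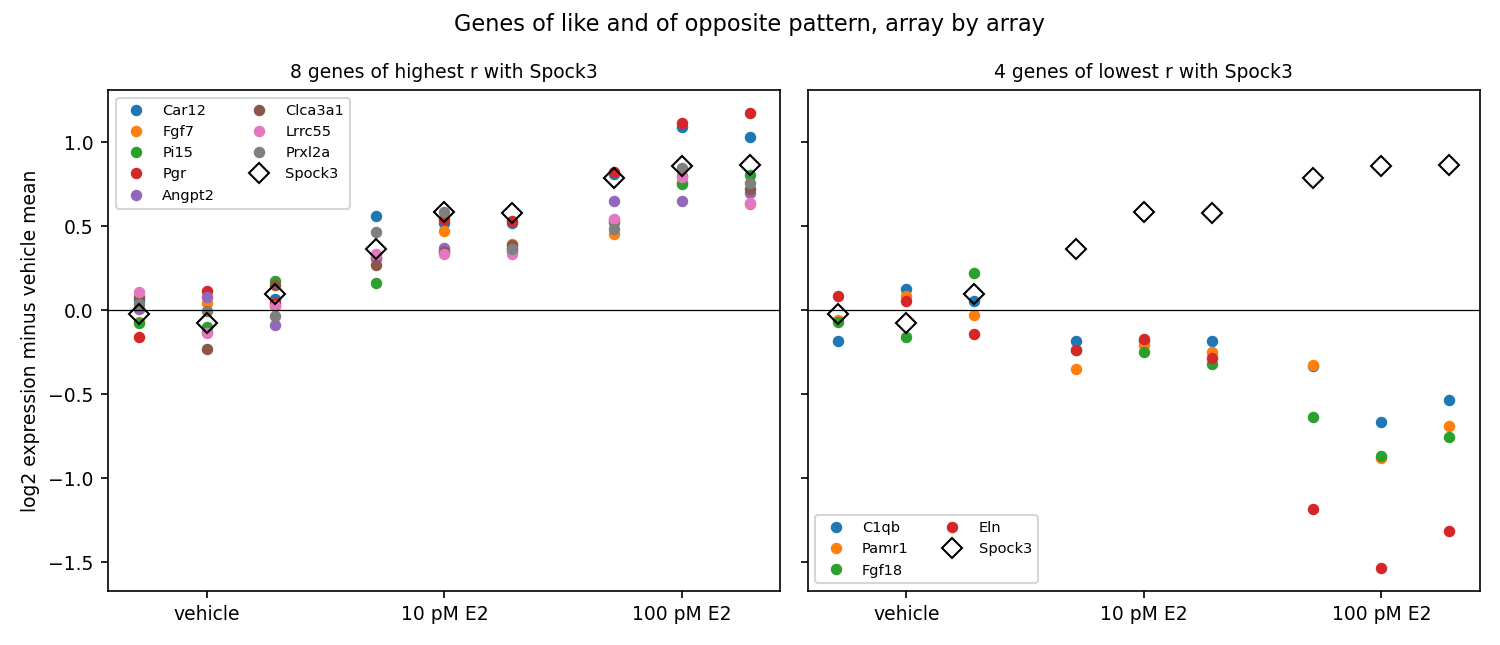
Log2 expression minus the vehicle mean on each of the 9 arrays, grouped by treatment, for the 8 genes of highest r with Spock3 on the left (Car12 highest, 0.967) and the 4 of lowest r on the right (Eln lowest, -0.866). Circles are the named genes and open diamonds are Spock3, the same in both panels.

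Genes that share domains with the SPARC family were counted next. Of 9 genes for follistatin-domain proteins outside the family, 1 rose and 0 fell at 100 pM against vehicle. Over all genes 0.446% were called as higher and 0.687% as lower in this contrast. The median difference of the 9 genes was -0.02, and that over all genes was 0.005. The gene that rose was Tmeff2, a transmembrane protein, with 6.33, 6.36 and 6.35 at 100 pM and 6.14, 6.12 and 6.10 with vehicle, a difference of 0.23 ± 0.03 (adjusted p = 0.0118).

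Of 11 measured genes for thyroglobulin type 1 domain proteins, the domain that testicans and SMOC proteins carry, 5 fell and 0 rose at 100 pM against vehicle (median -0.16). All 5 that fell encode insulin-like growth factor (IGF) binding proteins. Over all genes 0.687% were called as lower in this contrast. Igfbp5 fell by 0.58 ± 0.07 (adjusted p = 0.00752), with 10.96, 10.65 and 10.87 at 100 pM and 11.45, 11.38 and 11.38 with vehicle. Igfbp6 fell by 0.35 ± 0.05 (adjusted p = 0.0201), and Igfbp2, Igfbp3 and Igfbp4 by 0.47, 0.89 and 0.76. At 10 pM their differences from vehicle lay between -0.13 (Igfbp3) and 0.04 (Igfbp2), with 0 called, and the second 100 pM array was the lowest in each of the 5.

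Partners of the members were mostly not called. Of 9 measured proteases and inhibitors linked to testicans, limma called 0 at 100 pM against vehicle (median -0.04). Smallest in p were Mmp14, a membrane-type matrix metalloprotease that human testican 3 inhibits (-0.17 ± 0.03, adjusted p = 0.062), and its substrate Mmp2 (-0.19 ± 0.05, adjusted p = 0.174). For both, the arrays at 100 pM lay below those of vehicle, at 12.27, 12.24 and 12.26 against 12.42, 12.43 and 12.42 for Mmp14. Arrays at 100 pM lay below vehicle in this way for 5.89% of all genes, and these 2 were named for their small p. Of 18 matrix and receptor partners of SPARC, 1 fell and 0 rose (median 0.04), the collagen gene Col3a1 (-0.18 ± 0.03, adjusted p = 0.0469). Over all genes 1.13% were called in this contrast, 0.687% as lower.

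Of 19 measured genes that assemble heparan and chondroitin sulfate chains, which testicans carry, 0 were called in any of the 3 contrasts (median -0.001 at 100 pM against vehicle, range -0.22 to 0.21). Glce, an epimerase of heparan sulfate, differed by -0.22 (adjusted p = 0.152) and the chondroitin sulfotransferase gene Chst11 by 0.19 (adjusted p = 0.171). Of 12 genes of BMP signaling, the pathway linked to Smoc1, 0 were called. Their differences at 100 pM against vehicle ran from -0.27 to 0.01 (median -0.03, against 0.005 over all genes). Bmp2 differed by -0.27 (adjusted p = 0.316) and Smad5 by -0.09 (adjusted p = 0.378). At 10 pM against vehicle 0 genes of these lists were called.

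**Figure D4:**
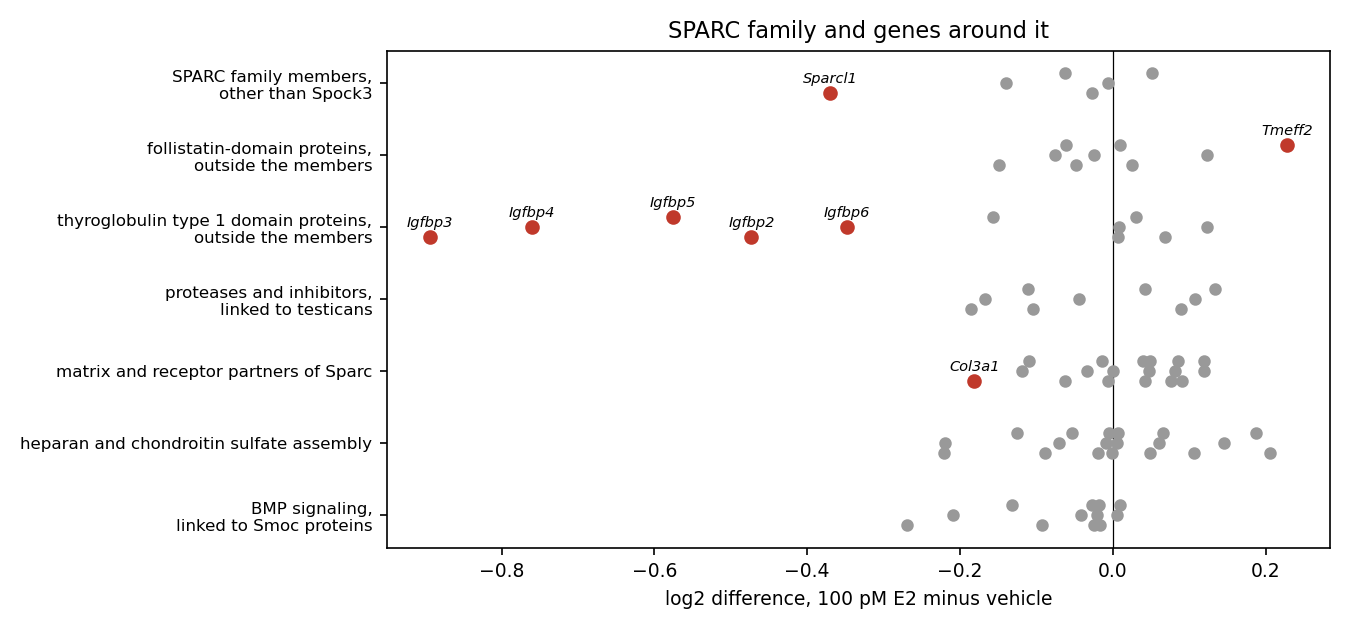
Log2 differences of 100 pM E2 minus vehicle for the 6 tested SPARC family genes and the genes of 6 lists around them, 1 point per gene, spread vertically within a list to keep points apart. Red points with names are genes called at an adjusted p below 0.05, among them Sparcl1 at -0.37 and Igfbp3 at -0.89, and grey points were not called.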

How the data were processed

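Expression was measured in 9 samples on 1 Affymetrix Mouse Gene 1.0 ST array each, and the sample titles gave the group and replicate number of each. The deposited values are log2 expression per probeset, which the authors made from scanned images with GCOS and Gene Expression Console (versions and the normalization method are not given in the sources used here). The log2 scale was inferred from the range of the values, and their centring is unknown.

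The platform annotation, which is old, paired 21789 of 35556 probesets with a single gene symbol. Another 1621 matched several genes and stayed unnamed, as did 12146 with no symbol here. For 21698 of the probesets with a single symbol, the Entrez identifier was found in RefSeq and the RefSeq symbol was used. The probeset with the highest mean represented a gene, which left 19938 genes, with no filter on dim signals. Group means were estimated jointly from the 9 arrays (limma 3.58.1, R 4.3.3), and moderated two-sided contrasts and the F test were adjusted by Benjamini-Hochberg over all genes. Genes are called at an adjusted p below 0.05. The procedure was tested on simulated data. A linear model without moderation was an alternative, read by the same pairwise contrasts and adjusted p. The study's own test, one-way analysis of variance at an unadjusted threshold, was not run. The paper states that Benjamini-Hochberg correction removed the effects found with that test, and relates this to low power from few samples. Other alternatives were quantile normalization, centring on array medians, a filter on the 30% dimmest genes, all probesets, probeset means, trend and robust, array weights, compared groups only, the replicate block, and leaving out each array. The number of arrays limits the precision.

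The members, the gene lists and the tests were chosen with earlier results of these data known. Named were all members, the estrogen check genes, called genes of each list (at most 5) or the 2 of smallest p, called markers of other cells (chosen after their values were seen), and the 8 genes of highest and 4 of lowest r with Spock3. Same-numbered arrays of different groups did not deviate together (r of deviations from -0.112 to 0.2 over 9 pairs), so the numbers were not taken as pairs.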

Additional observations from a re-analysis of the deposited data

How the results depend on the processing

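The difference of Spock3 from vehicle moved by less than the larger replicate SD of the compared groups in all 19 alternatives. It lay between 0.47 and 0.58 at 10 pM and between 0.80 and 0.89 at 100 pM. Several alternatives leave its group means as they are and could not move it, so this range is a description. Sparcl1 kept its direction in all 19 alternatives at 100 pM against vehicle and lost its call in 10, and in 11 at 100 pM against 10 pM. With the replicate block the adjusted p of Sparcl1 was 0.0734 against vehicle and 0.0945 against 10 pM. The block called 1 gene at 10 pM against vehicle, where 0 were called otherwise.

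The count of 226 genes called at 100 pM against vehicle was 343 without the 30% dimmest genes, 349 with trend and robust, 119 with all probesets, 10 with the compared groups only and 30 without moderation, and 88 to 259 without single arrays. The count of 166 at 100 pM against 10 pM was 291, 284, 30, 1 and 1 in the same order, and 30 to 178 without single arrays. Sparc turned sign on centring (0.0002 at 10 pM, 0.0103 at 100 pM and 0.0101 between doses) and on quantile normalization (0.0251 at 10 pM). Without single arrays Sparc gave -0.0125 to 0.0067 at 10 pM, -0.0146 to 0.0046 at 100 pM and -0.0065 to 0.0029 between doses, Smoc1 -0.1052 to 0.0235 at 100 pM, Smoc2 -0.0008 to 0.0514 at 10 pM, Spock1 -0.0179 to 0.0473 and Spock2 -0.0381 to 0.064 between doses. None of these was called in any alternative. The cause of these changes was not tested.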
